A study of Mus musculus with 6 samples.

Results

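The ATP-binding cassette (ABC) pumps, the Slco uptake carriers and the Slc22 carriers for organic cations, anions and carnitine are the main families that move bile acids, sterols, drugs and conjugated waste products across the membranes of liver cells. Their genes were examined in adult livers of C57BL/6 mice, 3 samples of wild type and 3 of Igfbp7-/- mice, which lack Igfbp7, a secreted protein that binds insulin-like growth factors, through Cre-loxP recombination. Every gene of the count tables whose symbol began with Abca to Abcg, Slco or Slc22a followed by a digit was taken, which gave 91 of the 22609 genes, namely 50 ABC, 15 Slco and 26 Slc22 genes. Of these, 57 had at least 10 counts in at least 3 libraries and were tested: 39 ABC, 6 Slco and 12 Slc22 genes. RNA came directly from liver tissue with no treatment named. The sources used here do not give sex, exact age, feeding state or time of collection, nor the promoter that drove Cre, and nothing in them says that the 3 samples of a genotype were separate animals, so the p-values measure how these samples vary, which may be technical.

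Hepatocytes take up bile acids and drugs from blood at the sinusoidal membrane, largely through Slco and Slc22 carriers, and export bile salts, phospholipid, sterols and conjugates into the bile canaliculus through ABC pumps that burn ATP. Further ABC proteins sit in mitochondria, peroxisomes and lysosomes, and the ABCE and ABCF proteins are soluble factors of ribosomes and translation that share only the ATP-binding domain. Nuclear receptors set the amounts of many of these transporters: CAR and PXR respond to foreign compounds, FXR to bile acids, LXR to oxysterols and PPAR alpha to fatty acids.

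Values per library are given in the order of replicates 1 to 3. Libraries held 16712568 to 22419411 gene counts, and the transporter genes took 0.883% to 0.952% of them. Igfbp7 checked the labels, with 1438, 1705 and 1055 counts in the wild type libraries, in replicate order, against 5, 2 and 9 in the knockout. The liver origin was plain from hepatocyte markers, which summed to 88862 to 119307 CPM (counts scaled to library size), while 7 kidney markers, checked because several Slc22 genes are kidney genes, summed to at most 0.098 CPM in any library, with Slc12a1, Kap and Aqp2 at 0 throughout. Wild type replicate 1 stood apart in its clock genes. Evening-phase genes such as Dbp and Per3 summed to 365 CPM there, against 680 to 827 CPM in the other wild type libraries and 961 to 1033 CPM in the knockout libraries. All 9 of them had log2 fold changes above 0 (median 0.82), 5 at an unadjusted edgeR p under 0.05. Clock state and genotype thus run together, and neither a clock gene score as covariate nor leaving out wild type replicate 1 separates them.

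By the main test no transporter gene passed the threshold between the genotypes, and most fitted differences were small. By edgeR's quasi-likelihood test, 0 of 57 had an adjusted p under 0.05, against 27 of 12594 genes tested, or 0.214% (0.127% higher and 0.0873% lower in the knockout). At an unadjusted p under 0.05 there were 17, or 29.8% of the 57, where all genes gave 15.4%. Of these, 10 were higher in the knockout (17.5%, against 8.04% of all genes) and 7 lower (12.3%, against 7.32%). Counted anew with total count scaling there were also 17, 8 higher and 9 lower, not all of them the same genes. Without wild type replicate 2 there were 10, 6 higher and 4 lower. DESeq2 called 6 of the 57, or 10.5%, against 3.51% of all genes, 5 of them higher (all genes 1.85% higher and 1.66% lower). The groups did not overlap in 19 transporter genes, or 33.3%, against 20.7% of all genes, with the knockout above in 11 (all genes 10.6%) and below in 8 (all genes 10.1%). The set was chosen by gene symbol and these shares have no test of their own.

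The direction was mixed. Over the 57 genes, 33 had a log2 fold change above 0 and 24 below 0 (50.2% of all genes were above 0), with a median of 0.04 against 0.00 over all genes tested, a median that was -0.0077 with total count scaling. In 50 of the 57 the log2 fold change was under 0.5 in size, or 87.7%, close to the 88.2% of all genes, and in 3 it was over 1, or 5.26% against 2.06%. Those 3 were Abcd2 and Slco1a4, higher in the knockout, and Abcb1b, lower. The 4 transporter genes with the smallest p, Abcd4, Abcg1, Abcc10 and Slc22a5, had edgeR adjusted p-values of 0.0815 to 0.0969.

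**Figure D1:**
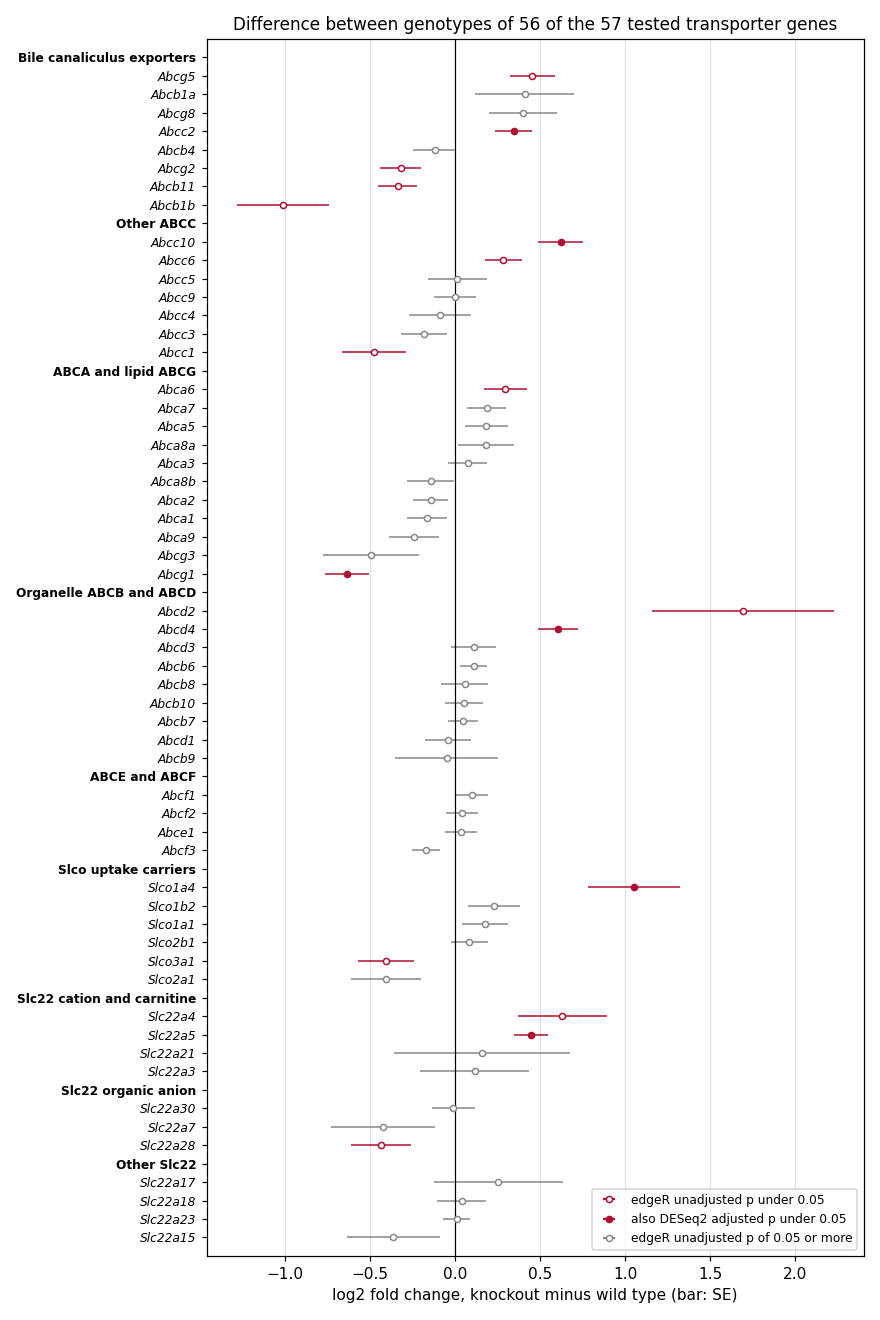
Log2 fold change, knockout minus wild type, with its standard error (bars), for 56 of the 57 tested transporter genes grouped by role, 3 libraries per genotype. Red marks an unadjusted edgeR p under 0.05 (17 genes) and filled red points an adjusted DESeq2 p under 0.05 as well (6 genes). The points drawn lie on both sides of 0 in 7 of the 9 role groups. All 3 organic anion carriers of Slc22 lie below 0, and the 4 cation and carnitine carriers drawn lie above 0.

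Summed over all 91 genes, the transporter level was 8883 ± 117 CPM (wild type) against 9333 ± 739 CPM (knockout; SD, n = 3 each). The knockout libraries, at 9690, 9827 and 8484 CPM, lay on both sides of the wild type libraries, at 8846, 9014 and 8789 CPM. By CPM, which is not corrected for transcript length, a few genes carried most of this: Slco1b2, Abcb11, Abcd3, Slco1a1 and Abcc2 were the 5 highest in every library and made up 54.0% to 56.8% of transporter CPM in each library. Slco1b2, the liver carrier for bile acids, bilirubin and drugs such as statins, alone took 17.3% to 23.2%. On a scale of CPM per kilobase of exon (lengths from GENCODE M21, which may differ from the annotation counted), Slco1b2 was first with a mean level of 523, with Abcd3 at 239, Slco1a1 at 199.9 and Abcb11 at 178 among those next to it, and the lowest tested gene, Slc22a21, had 0.13.

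**Figure D2:**
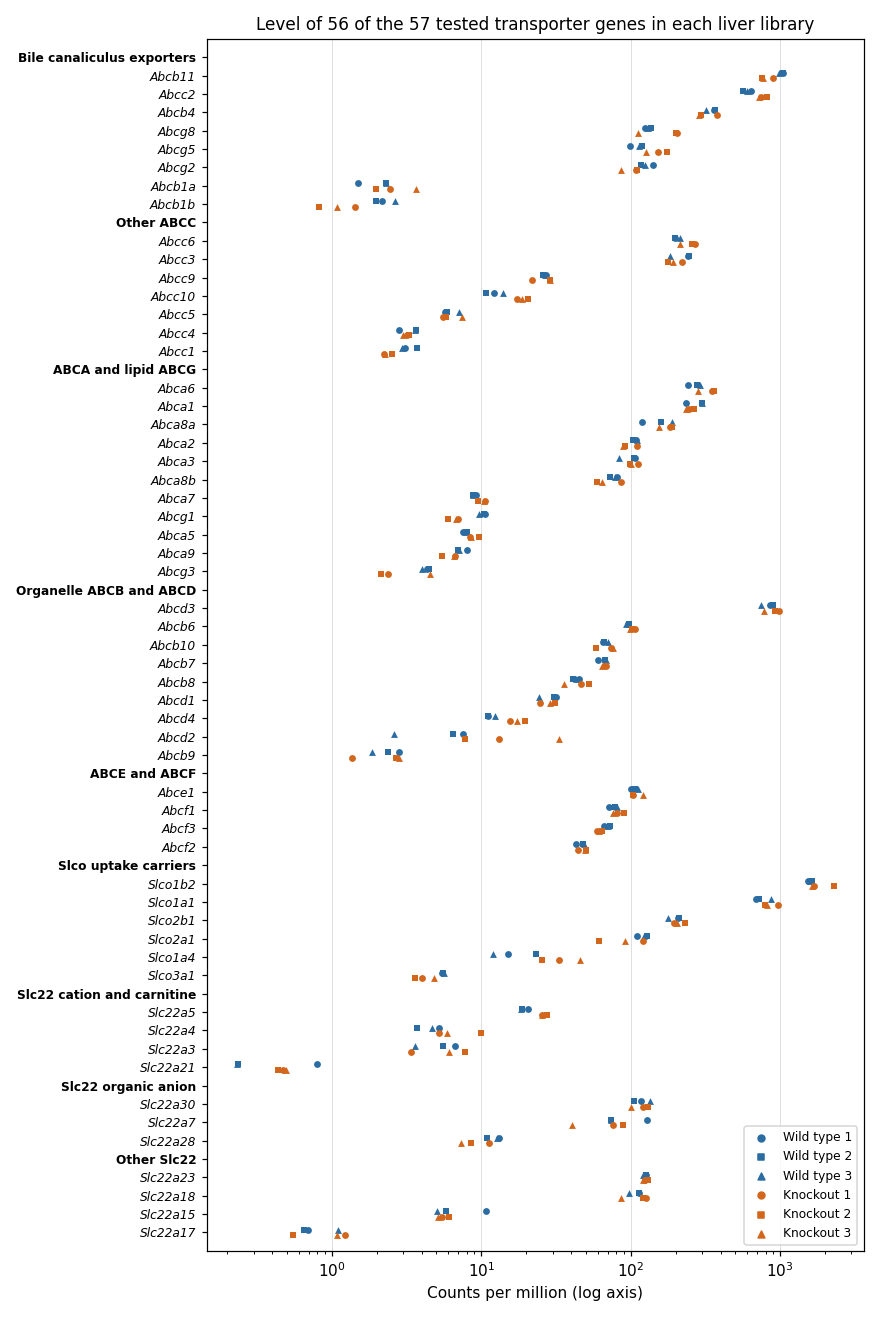
CPM of 56 of the 57 tested transporter genes in each of the 6 liver libraries on a log axis, grouped by role and ordered by mean level within a role (blue, wild type; orange, knockout; circle, square and triangle, replicates 1 to 3). Levels run from 0.231 CPM for Slc22a21 to 2283 CPM for Slco1b2. For most genes the 6 points lie close together, while others, such as Abcd2, Slc22a7 and Slc22a21, spread over 2 times within a genotype.

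The pumps of the bile canaliculus were tested in full, 8 of 8 genes, with 4 higher and 4 lower, a median log2 fold change of 0.11 and 0 past the edgeR threshold. At an unadjusted p under 0.05 there were 5, 2 higher and 3 lower, where all genes gave 15.4% (8.04% higher and 7.32% lower). The same background holds for such counts of each list below. Abcb11, the bile salt export pump, had 1042, 1049 and 979 CPM in the wild type against 903, 759 and 763 CPM in the knockout. All 3 knockout values lay below the wild type values, at a log2 fold change of -0.34 ± 0.11 (SE, unadjusted p = 0.0164, edgeR adjusted p = 0.212). Abcc2, which exports conjugated bilirubin, glucuronides and glutathione conjugates, went the other way. Its levels were 639, 565 and 602 CPM in the wild type against 746, 820 and 723 CPM in the knockout. Here the knockout values all lay above, at 0.34 ± 0.11 (SE, edgeR adjusted p = 0.187, DESeq2 adjusted p = 0.0465). The ratio of Abcb11 to Abcc2 reads, chosen after the values were seen and given without a test, was 1.70 ± 0.13 in the wild type against 1.06 ± 0.14 in the knockout (SD, n = 3 each). With total counts per library in place of the scaled sizes this ratio is the same by construction.

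Abcg5 and Abcg8 encode the partner subunits of the pump that secretes cholesterol and plant sterols into bile, and the genes lie head to head. Abcg5 had 98.9, 119 and 114 CPM in the wild type against 152, 175 and 127 CPM in the knockout, groups that did not overlap (log2 fold change 0.45 ± 0.13 SE, unadjusted p = 0.00744, edgeR adjusted p = 0.164). Abcg8 had 125, 137 and 130 CPM in the wild type against 203, 202 and 112 CPM in the knockout. Knockout replicates 1 and 2 were high for Abcg8, whereas replicate 3 lay below each wild type library, and the log2 fold change of 0.40 ± 0.20 (SE, edgeR adjusted p = 0.397) was 0.63 without knockout replicate 3 and 0.26 without knockout replicate 1. The Abcg8 to Abcg5 ratio was 1.19 ± 0.07 in the wild type against 1.12 ± 0.23 in the knockout (SD, n = 3 each).

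Abcb4, the phospholipid floppase of the canaliculus, stood at 349 ± 26.2 CPM in the wild type against 320 ± 49.4 CPM in the knockout, and Abcg2, a pump for urate and many drugs, at 127 ± 12.5 and 102 ± 13.9 CPM (SD, n = 3 each). Abcg2 groups did not overlap, with a lowest wild type value of 117 CPM and a highest knockout value of 111 CPM (log2 fold change -0.32 ± 0.12 SE, edgeR adjusted p = 0.259, and -0.21 without knockout replicate 3). The P-glycoprotein genes Abcb1a and Abcb1b, drug efflux pumps, had mean levels of 0.47 and 0.39 CPM per kilobase. Abcb1b had 41, 42 and 46 counts in the wild type against 30, 15 and 22 in the knockout, or 2.27 ± 0.35 and 1.11 ± 0.30 CPM (SD, n = 3 each). Its knockout values all lay below the wild type values, at -1.02 ± 0.27 (SE, edgeR adjusted p = 0.140). Abcb1a had 28, 49 and 40 counts in the wild type against 52, 36 and 74 in the knockout, with overlap. The log2 fold change, 0.41 ± 0.29 (SE), became 0.13 when knockout replicate 3 was left out and 0.12 with the clock score. Reads of these neighbours can be hard to place: 15.5% of the 50-base stretches of the Abcb1a transcript also occur in Abcb1b, and 18.0% of those of Abcb1b occur in Abcb1a.

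The promoters of 4 canalicular or sinusoidal genes are shown because these genes differ in direction (Abcb11 against Abcc2), share a start region (Abcg5 and Abcg8) or are textbook CAR targets (Abcc2 and Slco1a4). Each is the RefSeq window of assembly GRCm38.p6, 250 bases before to 50 after the start, read 5′ to 3′ on the gene's strand, and capitals mark matches on either strand to 7 motifs: AGGTCA (nuclear receptor half-site), TGACNNNGC (antioxidant response element core), TTCNNNGAA (STAT site), CACGTG (E-box), TTATGTAA (D-box), CCAAT and TATAAA. Abcg8 has a pair of listed starts, and the window shown, chr17:84682871-84683170 on the plus strand, is the one next to Abcg5. It shares 209 bases with the Abcg5 window on the opposite strand, and 109 bases lie between these start sites. The other, chr17:84676052-84676351, held none of the 7 motifs. Abcc2 is at chr19:43782058-43782357, plus strand, Abcb11 at chr2:69342567-69342866, minus strand, and Slco1a4 at chr6:141856171-141856470, minus strand.
Abcg8: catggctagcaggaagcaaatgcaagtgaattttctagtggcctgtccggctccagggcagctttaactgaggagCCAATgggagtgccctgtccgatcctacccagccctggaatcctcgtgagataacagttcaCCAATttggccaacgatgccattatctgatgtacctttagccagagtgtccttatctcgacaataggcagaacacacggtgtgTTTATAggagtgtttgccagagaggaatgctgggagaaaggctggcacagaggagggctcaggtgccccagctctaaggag
Abcc2: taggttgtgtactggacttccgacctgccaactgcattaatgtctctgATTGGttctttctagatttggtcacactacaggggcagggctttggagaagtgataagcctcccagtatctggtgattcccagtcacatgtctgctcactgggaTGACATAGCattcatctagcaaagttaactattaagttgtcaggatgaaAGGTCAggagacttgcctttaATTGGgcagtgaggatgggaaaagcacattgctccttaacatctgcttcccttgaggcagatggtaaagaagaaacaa
Abcb11: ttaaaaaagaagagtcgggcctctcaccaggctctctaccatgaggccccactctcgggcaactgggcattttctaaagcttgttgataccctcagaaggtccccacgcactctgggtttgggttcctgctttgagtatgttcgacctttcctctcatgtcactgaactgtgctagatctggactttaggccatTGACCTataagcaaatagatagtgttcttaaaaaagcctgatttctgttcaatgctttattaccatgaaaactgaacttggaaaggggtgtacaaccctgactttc
Slco1a4: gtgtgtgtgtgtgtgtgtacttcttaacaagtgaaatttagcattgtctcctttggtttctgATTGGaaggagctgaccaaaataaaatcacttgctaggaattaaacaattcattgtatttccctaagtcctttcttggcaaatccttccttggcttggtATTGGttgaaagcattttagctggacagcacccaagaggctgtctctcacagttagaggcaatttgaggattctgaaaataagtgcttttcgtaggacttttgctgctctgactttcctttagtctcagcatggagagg

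The Abcg8 window shown holds 2 CCAAT matches and 1 TATAAA match, and no AGGTCA. In the Abcc2 window there are 1 AGGTCA, 1 TGACNNNGC and 2 CCAAT matches, in the Abcb11 window 1 AGGTCA match, and in the Slco1a4 window 2 CCAAT matches. Among all 32851 RefSeq windows of this length, AGGTCA occurs in 16.3%, TGACNNNGC in 12.4%, TTCNNNGAA in 8.30%, CACGTG in 7.15%, TTATGTAA in 0.938%, CCAAT in 37.4% and TATAAA in 13.6%. Tested transporter genes had 52 windows, some genes having several starts, with AGGTCA in 17.3%, TGACNNNGC in 13.5% and CCAAT in 25.0%. The table had an entry for 43 of the 57 tested genes, and Abcd4, Abcg1 and Abcd2 are among those named here without one. These matches describe letters in a window and are no evidence of binding.

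The other ABCC genes, 7 of 9 tested, had 3 higher and 4 lower, 2 and 1 of them at an unadjusted p under 0.05. Abcc10, a pump for lipophilic drugs and conjugates also called MRP7, had 12.2, 10.7 and 14.0 CPM in the wild type against 17.3, 20.6 and 18.6 CPM in the knockout. The groups were well apart, a 1.54-fold difference (log2 fold change 0.62 ± 0.13 SE, unadjusted p = 0.00122, edgeR adjusted p = 0.0917, DESeq2 adjusted p = 0.00875). Abcc6, the liver gene whose loss causes pseudoxanthoma elasticum, had 198, 198 and 212 CPM in the wild type against 268, 259 and 214 CPM in the knockout. Its groups only just did not overlap, since knockout replicate 3 lay beside wild type replicate 3 (0.28 ± 0.11 SE, edgeR adjusted p = 0.262). The sinusoidal pump Abcc3, which returns glucuronides to blood, was at 224 ± 34.6 and 197 ± 21.4 CPM, and the drug and cyclic nucleotide pump Abcc4 at 3.35 ± 0.46 and 3.15 ± 0.14 CPM (SD, n = 3 each), both overlapping. Abcc9, a regulatory subunit of potassium channels and not a pump, was at 26.6 CPM in both genotypes on average. Abcc1 lay lower in each knockout library, at 2.23 to 2.51 CPM against 2.94 to 3.69 CPM (edgeR adjusted p = 0.279).

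Among the ABCA genes and the lipid transporters of ABCG, 11 of 19 were tested, 5 higher and 6 lower, with a median log2 fold change of -0.15 and 1 in each direction at an unadjusted p under 0.05. Abcg1, which passes cholesterol from macrophages and other cells to high density lipoprotein, had 10.6, 10.4 and 9.70 CPM in the wild type against 6.96, 5.95 and 6.82 CPM in the knockout. Each knockout value was far below each wild type value, relative to the spread within a genotype, at 0.642 of the wild type level (log2 fold change -0.64 ± 0.13 SE, unadjusted p = 0.000846, edgeR adjusted p = 0.0832, DESeq2 adjusted p = 0.0133). Abca1, which loads cholesterol onto apolipoprotein A-I and is likewise an LXR target, was at 278 ± 36.7 and 248 ± 14.1 CPM (SD, n = 3 each) with overlapping groups. So the 4 LXR target genes of the list split, with Abcg5 and Abcg8 at log2 fold changes above 0 and Abca1 and Abcg1 below.

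Macrophage markers were lower beside Abcg1. All 11 tested markers of Kupffer cells and macrophages were lower in the knockout, 0 past the threshold by edgeR, 11 at an unadjusted p under 0.05 and 9 by DESeq2, with a median log2 fold change of -0.69, and they summed to 684 to 771 CPM in the wild type against 361 to 565 CPM in the knockout. None of the 11 was at 0: Clec4f, restricted to Kupffer cells, stood at 171 to 188 CPM and 95.8 to 157 CPM. The knockout Abcg1 levels were 67.9%, 58.0% and 66.5% of the wild type mean in replicates 1 to 3, and the 11 markers ran from 33.8% to 68.3%, from 14.8% to 58.8% and from 59.2% to 89.1% in the same libraries. Abcg3 stood at 55.8%, 50.2% and 106% there. In whole tissue, fewer cells of a type and less RNA per cell cannot be told apart, and the part of macrophages in the Abcg1 difference was not tested. Slco2b1, an uptake carrier for steroid sulfates, stood at 98.2%, 116% and 103% of its wild type mean in the knockout libraries.

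**Figure D3:**
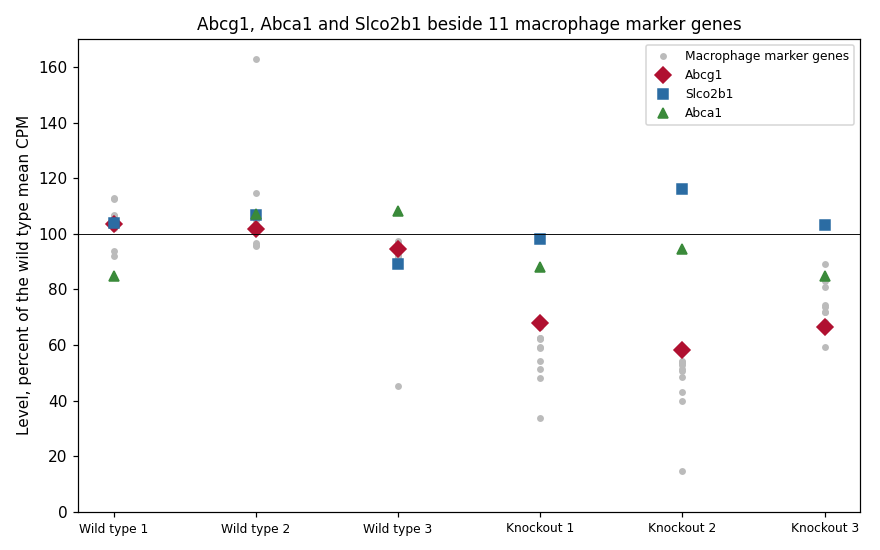
Level of Abcg1 (red diamonds), Slco2b1 (blue squares) and Abca1 (green triangles) in each liver library as percent of the gene's wild type mean CPM, with 11 macrophage marker genes (grey points). Abcg1 lies at 67.9%, 58.0% and 66.5% in the knockout libraries, while Abca1 is at 88.1%, 94.7% and 84.8%.

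The neighbouring genes Abca5, Abca6, Abca9, Abca8a and Abca8b form a cluster of mostly little studied lipid transporters. Abca6, which had the most reads of them, had 241, 278 and 290 CPM in the wild type against 348, 362 and 280 CPM in the knockout (0.29 ± 0.13 SE, unadjusted p = 0.0455, edgeR adjusted p = 0.315). Knockout replicate 3 lay among the wild type values. Abca8a overlapped at 119 to 189 and 156 to 190 CPM and was at 0.18 ± 0.16 (SE), which became -0.079 in a fit that includes the clock score. Abca9 was lower in each knockout library, at 5.46 to 6.68 CPM against 7.01 to 8.08 CPM (edgeR adjusted p = 0.475). Abca5 was higher in each, at 8.43 to 9.72 CPM against 7.60 to 8.04 CPM (edgeR adjusted p = 0.539). Groups did not overlap in 20.7% of all genes tested. The fitted log2 fold changes of the cluster lay on both sides of 0, none past the edgeR threshold.

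The organelle transporters ABCB and ABCD were tested in full, 9 of 9, with 7 higher and 2 lower, a median of 0.05, and 2 higher at an unadjusted p under 0.05. Abcd4, a lysosomal protein needed to release vitamin B12, had the smallest p of all transporter genes. Its levels were 11.1, 11.2 and 12.3 CPM in the wild type against 15.7, 19.5 and 17.4 CPM in the knockout. No knockout library came near the wild type range, and the 1.52-fold difference (log2 fold change 0.60 ± 0.12 SE, unadjusted p = 0.000795) had an adjusted p of 0.0815 by edgeR and 0.00757 by DESeq2. Abcd2, which carries very long chain fatty acids into peroxisomes, had 7.50, 6.50 and 2.60 CPM in the wild type against 13.2, 7.81 and 32.9 CPM in the knockout. Knockout replicate 3 was far above the rest and replicate 2 close to wild type replicate 1, so the log2 fold change of 1.69 ± 0.53 (SE, edgeR adjusted p = 0.191) was 0.92 without knockout replicate 3. Abcd3, the main peroxisomal membrane transporter, which brings bile acid intermediates into the organelle, was at 832 ± 78.9 and 896 ± 107 CPM (SD, n = 3 each). The porphyrin transporter Abcb6 was at 95.4 ± 1.60 and 103 ± 4.22 CPM and the mitochondrial transporter Abcb10, which serves heme synthesis, at 67.3 ± 2.37 and 69.6 ± 9.66 CPM (SD, n = 3 each).

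The ABCE and ABCF genes, which make no transporter, had log2 fold changes of -0.17 to 0.09 in 4 of 4 tested genes, with a median of 0.04. Abce1, a ribosome recycling factor, was at 107 ± 5.47 and 109 ± 9.80 CPM, Abcf1 at 76.9 ± 4.88 and 82.2 ± 7.06 CPM and Abcf3 at 69.7 ± 3.57 and 61.8 ± 2.01 CPM (SD, n = 3 each). Abcf3 alone had groups that did not overlap, with an edgeR adjusted p of 0.366.

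Slco carriers were few in liver, 6 of 15 tested, with 4 higher and 2 lower, a median of 0.13, and 1 in each direction at an unadjusted p under 0.05. Slco1a4, an uptake carrier for bile acids, digoxin and other drugs, had 15.2, 23.2 and 11.9 CPM in the wild type against 33.1, 25.4 and 46.0 CPM in the knockout. All knockout values lay above, though replicate 2 was close to wild type replicate 2, a 2.07-fold difference (log2 fold change 1.05 ± 0.27 SE, unadjusted p = 0.00409) with an adjusted p of 0.136 by edgeR and 0.00345 by DESeq2. With 1 library left out it ran from 0.80 without knockout replicate 3 to 1.36 without wild type replicate 2. Its neighbour Slco1a1, an abundant uptake carrier for organic anions, had 687, 725 and 871 CPM in the wild type against 975, 788 and 818 CPM in the knockout, with overlap (0.18 ± 0.14 SE). Slco1b2 had 1548, 1636 and 1594 CPM in the wild type against 1679, 2283 and 1631 CPM in the knockout, of which replicate 2 alone was clearly high (0.23 ± 0.15 SE, edgeR adjusted p = 0.528). Slco2b1 was at 198 ± 18.8 and 210 ± 18.4 CPM (SD, n = 3 each). The prostaglandin transporter Slco2a1 had 111, 129 and 124 CPM in the wild type against 121, 61.6 and 91.0 CPM in the knockout. Knockout replicate 2 was lowest, and the log2 fold change of -0.41 ± 0.21 (SE) was -0.19 without it. Slco3a1, another carrier of prostaglandins, had 5.42, 5.52 and 5.66 CPM in the wild type against 4.02, 3.60 and 4.86 CPM in the knockout, all below the wild type (-0.41 ± 0.17 SE, edgeR adjusted p = 0.289).

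**Figure D4:**
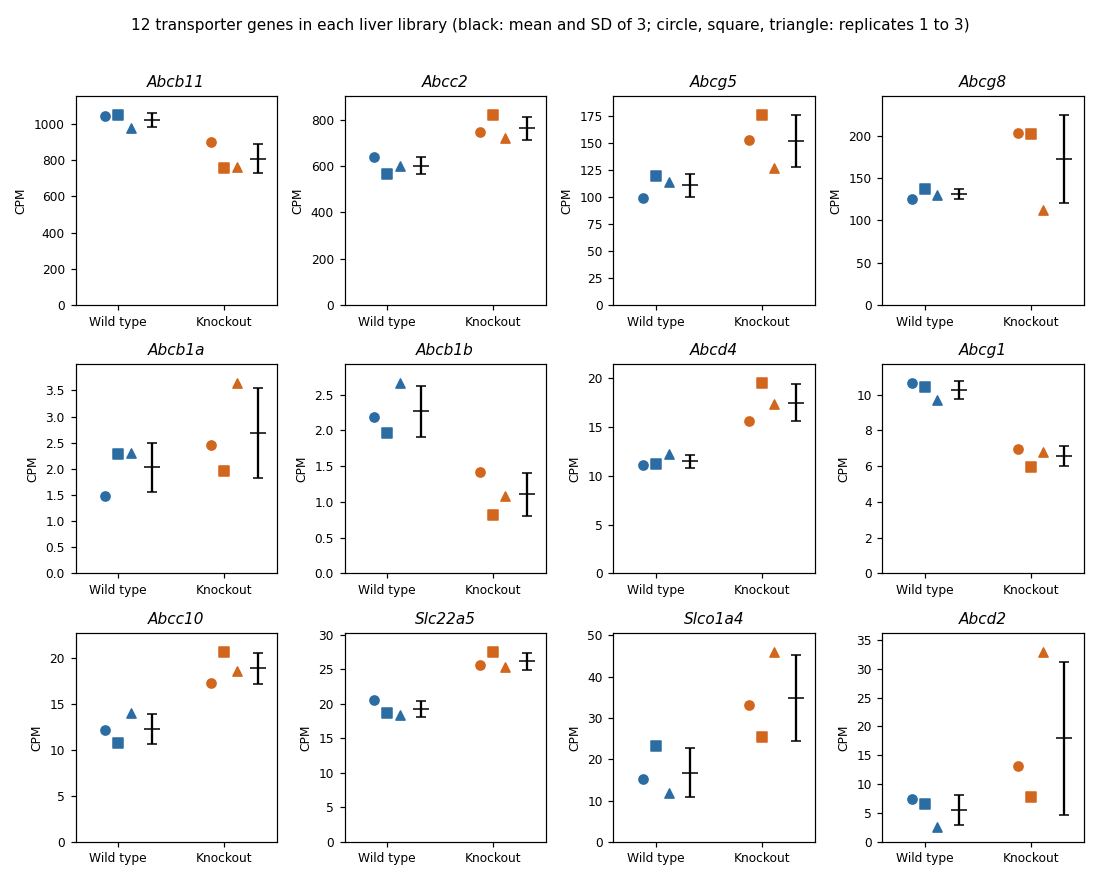
CPM in each liver library for 12 transporter genes, with wild type in blue and knockout in orange, replicates 1 to 3 as circle, square and triangle, and the mean and SD of 3 libraries in black. The groups are separate for Abcb11, Abcc2, Abcg5, Abcb1b, Abcd4, Abcg1, Abcc10, Slc22a5, Slco1a4 and Abcd2 and overlap for Abcg8 and Abcb1a. The separate genes are also those with the lowest edgeR p-values among the tested transporter genes, so the share drawn as separate reflects this choice. Without such a choice, 33.3% of the tested transporter genes and 20.7% of all genes tested had groups that did not overlap.

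Of the Slc22 carriers for cations and carnitine, 5 of 7 were tested, 4 of them higher, with a median of 0.16 and 2 higher at an unadjusted p under 0.05. Slc22a5, or OCTN2, the carnitine importer, had 20.5, 18.7 and 18.4 CPM in the wild type against 25.6, 27.5 and 25.3 CPM in the knockout. The spread within each genotype was small and the groups did not touch (log2 fold change 0.44 ± 0.10 SE, unadjusted p = 0.00148, edgeR adjusted p = 0.0969, DESeq2 adjusted p = 0.0270). Slc22a4, or OCTN1, the ergothioneine transporter, had 5.21, 3.69 and 4.68 CPM in the wild type against 5.21, 9.94 and 5.89 CPM in the knockout, where replicate 2 was high (0.63 ± 0.26 SE, edgeR adjusted p = 0.305, and 0.30 without it). The neighbour Slc22a21 sat at the edge of the count limit, and 27.0% of the 50-base stretches of Slc22a5 occur in it too.

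For organic anion carriers 3 of 13 genes were tested, all with log2 fold changes under 0, a median of -0.43 and 1 at an unadjusted p under 0.05. Slc22a7, or OAT2, had 129, 73.6 and 74.2 CPM in the wild type against 76.4, 89.4 and 40.3 CPM in the knockout. Wild type replicate 1 was high and knockout replicate 3 low, and the log2 fold change of -0.43 ± 0.30 (SE, edgeR adjusted p = 0.555) was -0.11 without wild type replicate 1 and 0.030 with the clock score. Slc22a28 was at 12.3 ± 1.22 and 9.05 ± 2.07 CPM (SD, n = 3 each; unadjusted p = 0.0353, edgeR adjusted p = 0.285) and Slc22a30 at 119 ± 14.4 and 118 ± 15.5 CPM (SD, n = 3 each). The counts of these neighbours are uncertain. Of the 50-base stretches of Slc22a28, 53.3% occur in Slc22a30, and of those of Slc22a30, 32.1% occur in Slc22a28. Slc22a18, an imprinted gene, was at 108 ± 9.04 and 111 ± 21.5 CPM and Slc22a23 at 124 ± 3.28 and 125 ± 5.03 CPM (SD, n = 3 each). Slc22a15 had 10.7 CPM in wild type replicate 1 and 5.02 to 6.11 CPM in the other 5 libraries.

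The remaining 34 genes were below the count limit. In 16 of them no library held a count, which allows a level of up to 0.140 to 0.173 CPM per library (3 counts, counting error only). They included Slc22a13, Slc22a19, Slco4c1, Slco6b1, Slco6c1 and Slco6d1. The other 18 had at most 14 counts in a library, among them Slc22a26, with 1, 1 and 0 counts in the wild type against 0, 1 and 13 in the knockout. At the edge of the limit, by the third highest count, Slc22a21 with 10 and Slc22a17 with 19 lay just inside, and Abca14 with 9 and Slco4a1 with 8 just outside.

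Spread within a genotype was large for some genes. The highest library was over 2 times the lowest within the wild type for Abcd2, Slc22a15 and Slc22a21, and within the knockout for Abcd2, Abcg3, Slc22a7, Slc22a17, Slc22a3 and Abcb9. Of the 57 tested genes, 7 shared at least 10% of their 50-base stretches with another GENCODE M21 gene, and 13 overlapped an exon of another gene there. Abcb6 is one of them, with 66.8% of its stretches in Gm29253 on the same strand, a gene with no row in the count tables. Abcg5 and Abcg8 themselves overlap by 40 exonic bases on opposite strands, and without a known strand setting reads there cannot be assigned.

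Grouped by the receptors known to induce them, the targets of CAR and PXR, of FXR and of LXR each had log2 fold changes on both sides of 0. Of 5 textbook CAR and PXR targets, Abcc2, Slco1a4 and Abcb1a had log2 fold changes above 0 and Abcc3 and Abcc4 below, at -0.18 ± 0.13 and -0.09 ± 0.18 (SE). Beside them, CAR itself (Nr1i3) rose, with 50.7, 48.4 and 55.9 CPM in the wild type against 111, 148 and 131 CPM in the knockout (edgeR adjusted p = 0.0117), the 1 gene of 14 listed receptors to pass the threshold. It did not pass when wild type replicate 2 was left out (edgeR adjusted p = 0.0676), with the replicate block (0.0519) and with the clock score (0.0910). PXR (Nr1i2) overlapped between the genotypes, at 80.8 to 83.0 and 79.6 to 121 CPM. FXR (Nr1h4) was at 142 ± 25.8 and 192 ± 10.3 CPM (SD, n = 3 each; edgeR adjusted p = 0.191), and its 3 listed targets split, with Abcb11 and Abcb4 below 0 and Abcc2 above. PPAR alpha (Ppara) was at 363 ± 77.8 and 522 ± 111 CPM with overlap (edgeR adjusted p = 0.241). Its 3 listed targets Abcd2, Abcd3 and Slc22a5 all had log2 fold changes above 0, as did 50.2% of all genes. In 2 of them, Abcd2 and Slc22a5, the knockout lay above without overlap, as in 10.6% of all genes. For Abcd2 the gap was narrow, 7.81 CPM in knockout replicate 2 against 7.50 CPM in wild type replicate 1.

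Carriers outside the 3 families gave 6 of 7 tested genes higher and 1 lower, 0 past the edgeR threshold, 0 by DESeq2, and 3 with an unadjusted p under 0.05, of which 1 was lower. Slc10a1, the sodium-dependent bile acid importer NTCP, overlapped at 711 to 915 and 831 to 1154 CPM. Slc29a1, a nucleoside carrier, was at 211 ± 12.9 and 264 ± 23.8 CPM, Slc47a1, a proton-coupled exporter of cations into bile, at 91.5 ± 16.3 and 123 ± 27.0 CPM, and Atp8b1, the flippase that protects the canalicular membrane, at 60.7 ± 5.92 and 47.3 ± 5.76 CPM (SD, n = 3 each), with edgeR adjusted p-values of 0.191, 0.305 and 0.200. Of 9 anchors and trafficking proteins of the canaliculus, 4 were higher and 5 lower, and 0 passed the threshold. Pdzk1, a scaffold for apical transporters, was at 88.8 to 91.6 and 83.8 to 90.2 CPM. Radixin (Rdx), which holds Abcc2 in the canalicular membrane, was at 254 to 283 and 288 to 308 CPM. Moesin (Msn), its relative outside hepatocytes, had 44.3 ± 1.07 and 31.7 ± 4.52 CPM (SD, n = 3 each; edgeR adjusted p = 0.120, DESeq2 adjusted p = 0.0211).

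Markers of further liver cells gave medians of -0.09 for 8 endothelial, -0.11 for 7 stellate, -0.47 for 6 cholangiocyte and -0.64 for 6 lymphocyte genes, with 0 past the edgeR threshold in each list. At an unadjusted p under 0.05 there were 1, 0, 2 and 3 lower in that order, 0 higher, and DESeq2 called 2 cholangiocyte genes lower and 0 of the others. The cholangiocyte markers Krt7 and Krt19 were near 1 CPM or under in every library, at 0.437 to 1.27 CPM. Of 9 pericentral genes 6 were higher and 3 lower, with a median of 0.09, 4 higher at an unadjusted p under 0.05 and 3 by DESeq2, and their part in the transporter differences was not tested. They summed to 8877 to 9694 CPM in the wild type against 10492 to 15037 CPM in the knockout. The gap in this sum was carried by Cyp2e1, since the sums of the other 8 overlapped at 3284, 3199 and 2727 against 3132, 3462 and 2739 CPM. Among these 8, Axin2, Tbx3 and Slc1a2 also lay above the wild type without overlap. Of 7 periportal genes 4 were higher and 3 lower, with a median of 0.08 and 1 lower at an unadjusted p under 0.05. Without wild type replicate 1, the library with the deviating clock genes, 12 transporter genes had an unadjusted p under 0.05, 8 higher and 4 lower.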

How the data were processed

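Each of the 6 liver libraries came with 1 deposited table of whole-number counts per gene symbol, not normalized. Per the submitters' processing notes, CASAVA 1.8.2, TopHat2 2.0.8b and HTSeq were used, and the builds mm9 and hg19 are named. For the annotation and strand setting, nothing is given in the sources used here. Alignments with several positions stood in a row of their own, outside the gene counts. They came to 1.49 (wild type replicate 2) to 2.65 (knockout replicate 2) per gene count. The 5 rows that name no gene stayed out. Reads without a feature came to 10.69%, 9.65% and 11.30% in the wild type against 11.33%, 12.30% and 12.48% in the knockout. Each knockout library thus lay above each wild type library, and what this does to the gene levels was not tested. Ambiguous reads came to 0.594% to 0.662%. Both shares are of the sum of gene counts, reads without a feature and ambiguous reads. Groups followed the genotype in the labels.

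The counts were fitted with edgeR 4.0.16 in R 4.3.3 (TMM scaling, quasi-likelihood test, Benjamini-Hochberg adjustment over all 12594 genes with at least 10 counts in at least 3 libraries, adjusted p under 0.05). CPM were computed with TMM-scaled library sizes. SE was derived from the test, as the size of the log2 fold change divided by the square root of its F statistic. The scripts were tested on simulated counts. Alternatives were DESeq2 1.42.0, other scalings and filters, a replicate block, a clock gene score as covariate, and each library left out.

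The transporter genes and all gene lists were chosen with earlier results of these data known. Genes were named by rule: the 10 lowest p-values, the 3 highest levels in each role, all canalicular and receptor target genes and a few set carriers, and among other carriers, anchors and receptors those at an unadjusted p under 0.05. Further genes, such as Abca5, Abca9, Abcc1, Slco2a1, Slco3a1, Abcg3, Slc22a26, Pdzk1, Rdx, Nr1i2, Slc10a1, Cyp2e1, Clec4f and Krt7, were added after their values were seen. Counting error alone underlies the floor of 3 counts. Exon lengths and shared 50-base stretches were taken from GENCODE M21, which matched 90 of 91 symbols, and promoters from RefSeq (73 of 91). No coordinates of the counted build were used. Values of 1 tested transporter gene and 1 listed receptor are not reported here one by one, though both stay in the fits and counts.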

Additional observations from a re-analysis of the deposited data

How the results depend on the processing

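Over 13 alternatives, 0 transporter genes passed the adjusted threshold except with DESeq2, which called 6. All genes past it numbered 27, against 442 with DESeq2, 133 with no filter on low counts, 1 with the replicate block, 2 with the clock score, and 3 to 34 with 1 library left out (leaving out wild type replicate 1 gave 5 and replicate 2 gave 4, and leaving out knockout replicate 2 gave 3 and replicate 3 gave 13). Transporter genes at an unadjusted p under 0.05 numbered 17, against 11 with the clock score, 12 with the replicate block and 10 to 17 with 1 library left out. The calls of past-threshold transporter genes with 1 library left out ran from 0 to 0. With total count scaling their number was again 17, with partly other genes, 8 higher and 9 lower against 10 and 7. The split of all genes past the threshold was 10 and 11 against 16 and 11, and the median of the transporter genes was -0.0077 against 0.04. The median ran from 0.0059 to 0.072 with 1 library left out. Of 597 values for 46 named genes, 565 kept direction and side of the threshold, 7 passed with DESeq2, 3 no longer passed and 22 turned direction. The 3 were Nr1i3 with the replicate block (1.32, edgeR adjusted p = 0.0519), with the clock score (1.26, 0.0910) and without wild type replicate 2 (1.28, 0.0676). Direction turned with total count scaling for Abce1 (-0.0088), Slc22a18 (-0.019) and Slc22a23 (-0.041), and with the clock score for Abca8a (-0.079), Abce1 (-0.036), Slc22a15 (0.21) and Slc22a7 (0.030). With 1 library left out the ranges that crossed 0 were Abcb10 -0.022 to 0.16, Abcc9 -0.068 to 0.12, Abce1 -0.042 to 0.076, Slc22a15 -0.56 to 0.036, Slc22a18 -0.065 to 0.19, Slc22a21 -0.16 to 0.99, Slc22a23 -0.023 to 0.035 and Slc22a30 -0.10 to 0.087. The causes were not tested. Libraries with the same replicate number share only that number. Their deviations correlated at -0.085, -0.094 and -0.039, and no library correlated best with its own number. Depth limits the genes near the count minimum, such as Slc22a21.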
